A study of Bos taurus with 60 samples.

Results

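The miRNAs bta-miR-183, bta-miR-96 and bta-miR-182 were taken by name from the known bovine miRNAs counted in liver small RNA of 60 steers, and all 3 were found among the 1030 known mature miRNAs. The steers (castrated males) were 20 Angus, 20 Charolais and 20 Kinsella Composite (KC, a crossbred beef population), with 1 library per steer. They shared a barley-based finishing diet, liver was collected at slaughter, and by the study's methods mean age at slaughter differed between the breeds, Charolais being the oldest and KC the youngest. Each breed held 6 low-RFI steers, 6 high-RFI steers and 8 steers with no RFI group, where residual feed intake (RFI) is feed eaten beyond that predicted from growth and body size, so that low-RFI animals are the more efficient ones. By the study's methods, all sequenced steers came from the high and low ends of RFI in their breed. Those given an RFI group were picked for extreme RFI and for miRNA expression resembling that of their breed's other samples. Steers were not unrelated: the 60 had 23 sire labels, of which 7 were of the Angus, 5 of the Charolais and 11 of the KC steers (the label of KC steer 3 may be a placeholder for an unrecorded sire), and the largest paternal families held 6, 8 and 8 steers.

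In mammals these miRNAs are processed from neighbouring hairpins of a single primary transcript, best known from sensory cells such as photoreceptors and hair cells and also found in epithelia. In liver the sterol-regulated transcription factor SREBP-2 drives the locus, and miR-96 and miR-182 repress FBXW7 and INSIG2, which hold SREBP in check. Transcripts of the FOXO factors, which act in insulin signalling, are further known targets of the cluster. In the RefSeq annotation of the bovine assembly ARS-UCD2.0, MIR182, MIR96 and MIR183 follow each other on chromosome 4 with no gene between them, flanked by NRF1 and SMKR1 on one side and by LOC132345191 and UBE2H on the other. The study mapped to the older build UMD3.1, so the table was used for gene order only.

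The mature sequences are printed because the members share most of a seed (bases 2 to 8, in capitals), the stretch that pairs with targets, and because bta-miR-1271 shares the whole seed of bta-miR-96.
bta-miR-182: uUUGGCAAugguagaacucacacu
bta-miR-183: uAUGGCACugguagaauucacug
bta-miR-96: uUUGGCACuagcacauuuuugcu
bta-miR-1271: cUUGGCACcuaguaaguacuca

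Counted from 1 at the 5′ end, with the base of bta-miR-183 first, bta-miR-183 and bta-miR-96 differ in the seed by A2U alone. With the base of bta-miR-96 first, bta-miR-96 and bta-miR-182 differ there by C8A alone. Over the first 23 bases bta-miR-183 and bta-miR-182 were identical at 18, bta-miR-183 and bta-miR-96 at 13, and bta-miR-96 and bta-miR-182 at 12. None of the 588 mature sequences listed by the study as expressed came within 1 mismatch of a member other than that member itself. Each member had 1 precursor in the files, so that averaging over precursors left its count as deposited.

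Levels are given as CPM (a miRNA's count divided by the steer's total count and brought to 1 common library size) with TMM factors. Totals per steer ran from 1930859 to 6759381 counts, and the breed medians were 5547018 for KC, 4405876 for Charolais and 3720336 for Angus. This places 3 counts at 0.444 to 1.554 CPM. These floors cover counting error only, since amplified reads are not independent molecules. TMM factors ran from 0.673 to 1.17, and Angus steer 7 at 0.673 and Charolais steer 16 at 0.698 stood apart from the next lowest at 0.851. The hepatocyte miRNA bta-miR-122 was present at 5361 to 17370 CPM in the 60 steers, and bta-miR-885, also known from hepatocytes, at 11.65 to 66.87 CPM.

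All 3 members were detected in every steer, at unequal levels. bta-miR-182 was the abundant member, with 448 ± 140 CPM (SD, n = 60 steers), a lowest of 136 CPM, a median of 451 CPM and a highest of 828 CPM. bta-miR-183 had 17.3 ± 6.64 CPM (SD, n = 60), with a lowest of 5.39 CPM, a median of 16.7 CPM and a highest of 44.0 CPM. bta-miR-96 had 5.95 ± 2.58 CPM (SD, n = 60), with a lowest of 1.22 CPM, a median of 5.83 CPM and a highest of 14.3 CPM.

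The order bta-miR-182, bta-miR-183, bta-miR-96 held in 60 of 60 steers. Within a steer, bta-miR-182 was a median of 25.3 times bta-miR-183, with ratios from 15.6 to 56.3, and bta-miR-183 was a median of 2.91 times bta-miR-96, with ratios from 1.33 to 9.29. The mature miRNAs of neighbouring hairpins were therefore counted at a median ratio of 76.1 between the most and the least abundant, with ratios from 39.5 to 198. Library preparation can capture small RNAs of different sequence unequally, and its part in these ratios was not tested. By mean CPM on library totals without TMM factors, bta-miR-182 ranked 68 in Angus, 61 in Charolais and 69 in KC among the 1030 known miRNAs. bta-miR-183 ranked 196, 182 and 186, and bta-miR-96 ranked 242, 232 and 234.

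The depth behind the members was unequal too. bta-miR-182 rested on 557 to 5434 counts per steer, bta-miR-183 on 20 to 289 and bta-miR-96 on 5 to 94. Counting error, taken as the variance equal to the mean that counts would have, amounted to 0.559% of the variance between steers for bta-miR-182, 9.42% for bta-miR-183 and 21.1% for bta-miR-96. The level of bta-miR-96 in a single steer is thus the least firm of the 3.

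Seeds were compared among the 588 mature sequences listed by the study, not among all 1030 known miRNAs. There only bta-miR-1271 carried the seed of a member, and bta-miR-1271 was more abundant than that member. It had 30.2 ± 8.42 CPM (SD, n = 60), with a lowest of 9.45 CPM, a median of 29.6 CPM and a highest of 61.4 CPM. It exceeded bta-miR-96 in 60 of 60 steers, by a median of 5.08 times with ratios from 2.18 to 21.9. Of the counts with the seed of bta-miR-96 in these 2 miRNAs, most were thus those of bta-miR-1271 in every steer.

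**Figure D1:**
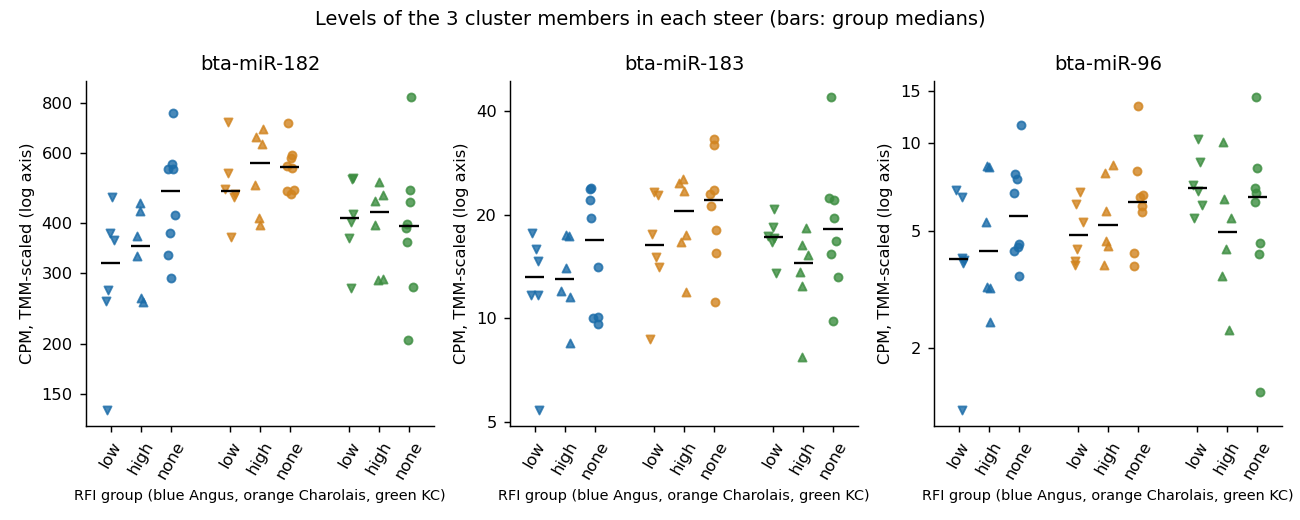
Each point is 1 steer, placed by breed and RFI group on the horizontal axis and by TMM-scaled CPM on a log vertical axis, with bars at group medians. Steers of low-RFI and high-RFI groups overlapped for each member in each breed, while bta-miR-182 stood higher in Charolais (median 516 CPM) than in Angus (374 CPM) and KC (400 CPM).

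Breeds were compared over all 60 steers, and bta-miR-182 differed between them. It had 390 ± 140 CPM in Angus, 538 ± 103 CPM in Charolais and 415 ± 132 CPM in KC (SD, n = 20 steers each). In Angus the lowest, median and highest steers were at 136, 374 and 755 CPM, in Charolais at 370, 516 and 716 CPM, and in KC at 205, 400 and 828 CPM. The breeds overlapped, but no Charolais steer fell below 370 CPM.

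In the quasi-likelihood F test of edgeR over the breeds, bta-miR-182 had an adjusted p of 0.0113 (Benjamini-Hochberg over 397 miRNAs). By that test 19.4% of the 397 miRNAs were called at an adjusted p under 0.05, so 1 member of 3 called is read against that share. bta-miR-182 was 1.38-fold higher in Charolais than in Angus (log2 fold change 0.47, SE 0.13, 95% interval 0.20 to 0.73, edgeR adjusted p = 0.0418). At this threshold 3.02% of miRNAs were called between Charolais and Angus, where bta-miR-182 had the sixth smallest p, and 0.756% also changed by over 1.5-fold, which bta-miR-182 did not. In KC it was lower than in Charolais, (log2 fold change -0.37, SE 0.13, 95% interval -0.63 to -0.11, edgeR adjusted p = 0.0363), with 16.6% of miRNAs called and 6.3% also past 1.5-fold. Between KC and Angus, neighbours in the order of levels, the log2 fold change was 0.09 (95% interval -0.17 to 0.35, edgeR adjusted p = 0.709). No difference was called for bta-miR-182 there, while 12.8% of miRNAs were called and 4.53% also passed 1.5-fold.

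Those fits take half-brothers as independent. With a correlation between steers of the same sire, estimated at 0.0216 over all miRNAs, limma (voom) gave bta-miR-182 a log2 fold change of 0.55 for Charolais over Angus (adjusted p = 0.0122) and -0.42 for KC over Charolais (adjusted p = 0.0227). In a comparison of the means of 5 Charolais and 7 Angus sires, the difference was 0.793 on the log2 scale (exact two-sided permutation p = 0.00758, not adjusted over miRNAs). It was 0.595 (exact permutation p = 0.013) without Angus steer 11, the lowest steer and the only son of its sire.

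bta-miR-183 showed a similar fold between Charolais and Angus that missed the threshold. It had 14.5 ± 5.12 CPM in Angus, 19.9 ± 6.49 CPM in Charolais and 17.5 ± 7.28 CPM in KC (SD, n = 20 each). Charolais exceeded Angus by a log2 fold change of 0.45 (SE 0.16, 95% interval 0.14 to 0.77, edgeR adjusted p = 0.100), and the F test over breeds gave an adjusted p of 0.0805. The side of the threshold of that F test turned on single steers, since its edgeR adjusted p was 0.0347 without KC steer 4 and 0.0466 without Angus steer 7, but 0.115 without Charolais steer 16 and 0.204 in libraries thinned to equal depth. The pair of Charolais and Angus missed the threshold in all of these fits, with edgeR adjusted p from 0.0645 to 0.203. Over sire means the difference was 0.818 on the log2 scale (exact permutation p = 0.00758, not adjusted over miRNAs), and 0.636 (exact permutation p = 0.013) without Angus steer 11.

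bta-miR-96 had 5.38 ± 2.49 CPM in Angus, 5.99 ± 2.27 CPM in Charolais and 6.47 ± 2.94 CPM in KC (SD, n = 20 each). By edgeR its largest difference between breeds was KC over Angus, a log2 fold change of 0.26 (SE 0.19, 95% interval -0.13 to 0.64, edgeR adjusted p = 0.415), and the F test gave an adjusted p of 0.575. Over sire means Charolais over Angus was instead the largest, at 0.585 on the log2 scale (exact permutation p = 0.0859, not adjusted over miRNAs). It was 0.31 (exact permutation p = 0.147) without Angus steer 11. KC over Angus was 0.449 over sire means, and 0.174 without that steer. For Charolais over Angus its interval, -0.25 to 0.54, covered the 0.47 of bta-miR-182. For KC over Charolais its interval, -0.26 to 0.49, did not cover the -0.37 of bta-miR-182 but overlapped that member's interval of -0.63 to -0.11. Neither these intervals nor that bta-miR-182 passed and bta-miR-96 did not is a test of a difference between them. In Charolais the median ratio of bta-miR-182 to bta-miR-96 was 96.5, against 69.9 in Angus and 59.3 in KC, and the ranges of the breeds overlapped.

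Breed could not be told apart from what else differed between the breeds' steers, age at slaughter among it. KC libraries were the deepest by median and Angus libraries the shallowest. With every steer thinned to 1930856 counts, bta-miR-182 had a log2 fold change of 0.47 for Charolais over Angus (edgeR adjusted p = 0.0382). For KC over Charolais it was -0.37 (edgeR adjusted p = 0.0328). That of bta-miR-183 for Charolais over Angus was 0.37 (edgeR adjusted p = 0.203), against 0.45 without thinning. Of 28 miRNAs on lists of liver cell types and of the sterol pathway, 5 were called between breeds, close to the 19.4% of all miRNAs. Both hepatocyte miRNAs were called in the F test, and their summed level ran from 5387 to 8416 CPM in Angus, 6206 to 17390 CPM in Charolais and 5864 to 11840 CPM in KC. Of 5 biliary epithelium miRNAs none was called, and their sum ran from 140.2 to 367.3 CPM in Angus, 158.5 to 332.6 CPM in Charolais and 111.2 to 333.0 CPM in KC. Calls were also made for 2 of 7 leukocyte miRNAs (bta-miR-146a and bta-miR-155) and 1 of 2 neuroendocrine ones (bta-miR-375), and for none of 2 endothelial, 5 stellate cell and fibroblast, 3 erythroid and 2 SREBP-intron miRNAs. No marker was at 0 in any steer. The part of cell makeup in the breed difference was not tested, and in bulk liver more cells of a type and more RNA per cell cannot be told apart.

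The RFI comparison asked whether the members differed between efficient and inefficient steers of the same breed, and none was called in any breed by edgeR. The compared steers had been picked partly on miRNA expression, and the effect of that on the spread within groups was not tested. In Angus, bta-miR-182 had a lowest, median and highest of 136, 318 and 465 CPM in low-RFI and 254, 351 and 448 CPM in high-RFI steers. In Charolais these were 370, 481 and 716 CPM against 396, 565 and 689 CPM, and in KC 276, 412 and 518 CPM against 289, 426 and 507 CPM. The groups overlapped almost wholly in each breed.

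For bta-miR-182 the log2 fold change of low-RFI over high-RFI was -0.15 in Angus (95% interval -0.62 to 0.32), -0.15 in Charolais (-0.49 to 0.19) and 0.05 in KC (-0.31 to 0.42). Exact two-sided permutation tests over all relabelings of the 12 steers gave p = 0.498, 0.578 and 0.773, where the smallest possible p is 0.00216. Calls (unadjusted edgeR p under 0.05 and over 1.5-fold) were made for 2.41% of miRNAs in Angus, 1.88% in Charolais and 1.82% in KC. For the 3 members the smallest unadjusted p in these fits was 0.112 by the quasi-likelihood test, 0.116 by the likelihood-ratio test of edgeR and 0.133 by DESeq2.

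In KC, bta-miR-183 and bta-miR-96 had higher means in low-RFI than in high-RFI steers, short of the threshold. bta-miR-96 had a lowest, median and highest of 5.53, 7.01 and 10.3 CPM in low-RFI KC steers, against 2.30, 4.95 and 10.02 CPM in high-RFI KC steers. All 6 low-RFI steers lay above the median of the high-RFI steers, and 1 lay above all of them. The log2 fold change was 0.47 (SE 0.29, 95% interval -0.14 to 1.08, edgeR p = 0.124, adjusted p = 0.966), and the exact permutation p was 0.102. Leaving out high-RFI KC steer 8, at 10.02 CPM, moved it to 0.75, past the unadjusted threshold (edgeR adjusted p = 0.853).

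For bta-miR-183 in KC the lowest, median and highest were 13.5, 17.2 and 20.8 CPM in low-RFI and 7.69, 14.5 and 18.3 CPM in high-RFI steers. Here 5 of 6 low-RFI steers lay above the high-RFI median. The log2 fold change was 0.30 (SE 0.18, 95% interval -0.08 to 0.69, edgeR p = 0.112, adjusted p = 0.966), with an exact permutation p of 0.0823. It was 0.15 without high-RFI KC steer 16, the lowest at 7.69 CPM, and 0.040 with sire as a block, on 2 residual degrees of freedom.

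In Angus and Charolais the signs of both were the opposite, with intervals that covered 0. In Angus the log2 fold change was -0.08 for bta-miR-183 (95% interval -0.59 to 0.43) and -0.26 for bta-miR-96 (-1.05 to 0.52), and in Charolais -0.27 (-0.74 to 0.21) and -0.23 (-0.73 to 0.27). Exact permutation p-values were 0.721 and 0.647 in Angus and 0.372 and 0.468 in Charolais. With sire as a block, the Charolais value of bta-miR-183 became -1.15 and passed the unadjusted threshold (edgeR adjusted p = 0.224), on 6 residual degrees of freedom. Whether the RFI difference itself differed between breeds was tested by the interaction in the edgeR fit of 36 steers, which gave each of the members an adjusted p of 0.994. Over the breeds, log2 fold changes were -0.10 (95% interval -0.35 to 0.14), -0.03 (-0.31 to 0.25) and 0.00 (-0.39 to 0.40), and none was called, against 0.267% of all miRNAs.

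**Figure D2:**
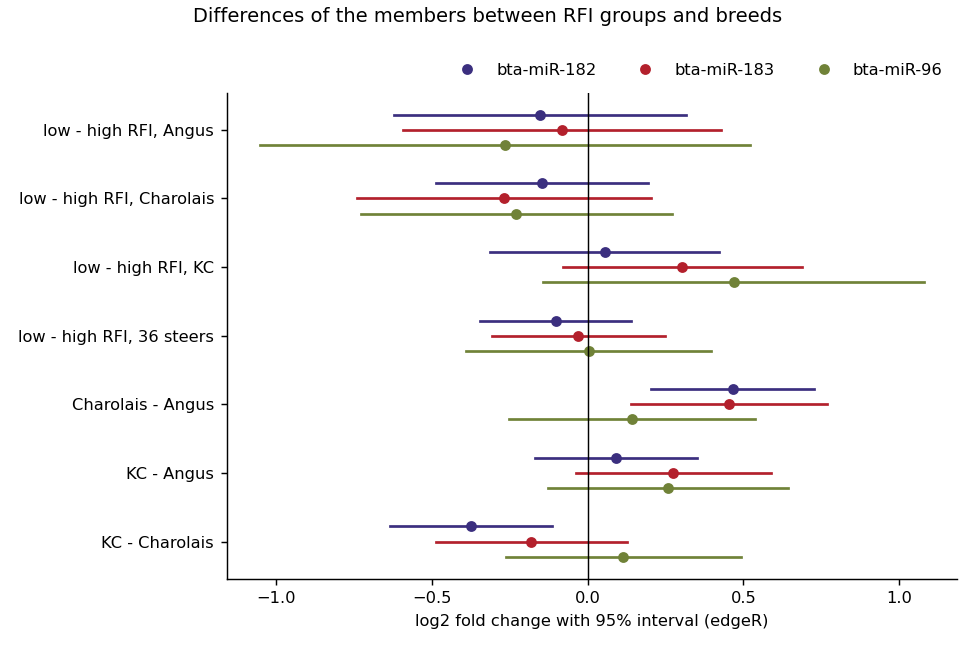
Points are log2 fold changes of the members from edgeR and lines their 95% intervals, for low-RFI minus high-RFI steers and for pairs of breeds, on a linear axis. The intervals of the 12 RFI values cover 0, and those of bta-miR-182 and bta-miR-183 for Charolais minus Angus (0.47 and 0.45) and of bta-miR-182 for KC minus Charolais (-0.37) do not.

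The 3 members rose and fell together across steers within breeds. With each breed's mean log2 CPM subtracted, bta-miR-183 and bta-miR-182 had Pearson's r = 0.755 and Spearman's rho = 0.739 over 60 steers. For bta-miR-96 and bta-miR-182 these were 0.652 and 0.568, and for bta-miR-183 and bta-miR-96 they were 0.650 and 0.642. For r, each permutation p within breeds was 1e-05, the smallest that 100000 permutations can give, and the adjusted p among the 396 partners of a member was at most 0.00198.

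The same relation held in each breed taken alone. For bta-miR-183 and bta-miR-182, r came to 0.845 among Angus, 0.762 among KC and 0.646 among Charolais steers (n = 20 each). For bta-miR-183 and bta-miR-96 it was 0.714, 0.630 and 0.618, and for bta-miR-96 and bta-miR-182 it was 0.699, 0.679 and 0.471. The pair of bta-miR-96 and bta-miR-182 in Charolais was the loosest of the 9, with a permutation p of 0.0327.

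Leaving out the 2 steers farthest from the median of the first member named, r was 0.664 for bta-miR-183 and bta-miR-182, 0.545 for bta-miR-183 and bta-miR-96, and 0.510 for bta-miR-96 and bta-miR-182. Among half-brothers, with values centred within sire for the 49 steers that shared a sire, r was 0.773, 0.627 and 0.533. With every library thinned to equal depth it was 0.711, 0.510 and 0.553, the lower values being those of the pairs with bta-miR-96, the member with the fewest counts. In each of these settings r stayed positive and past the permutation threshold, with p-values of at most 0.0009.

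**Figure D3:**
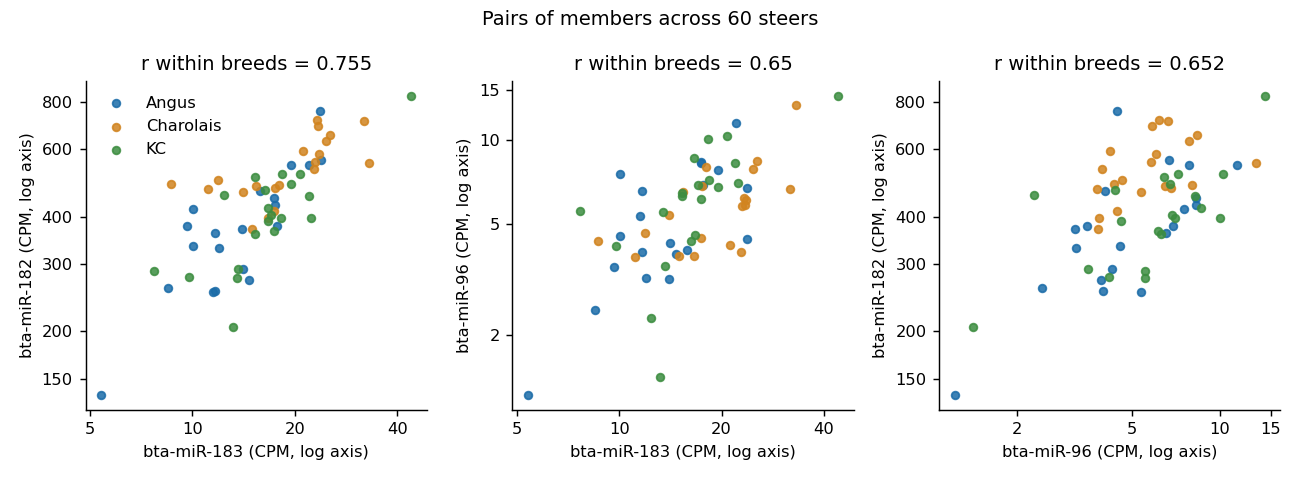
Each panel plots 1 member against another in CPM on log axes, a point per steer coloured by breed. Points of each breed run from lower left to upper right, with r centred within breeds of 0.755, 0.650 and 0.652, and KC steer 4 lies at the upper and Angus steer 11 at the lower end of each panel.

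Both ends were held by the same animals. KC steer 4, which had no RFI group, was the highest of 60 for each member, with 44.0 CPM of bta-miR-183, 14.3 CPM of bta-miR-96 and 828 CPM of bta-miR-182 from 289, 94 and 5434 counts. Angus steer 11, a low-RFI steer, was the lowest of 60 for each, with 5.39, 1.22 and 136 CPM. Without KC steer 4 the r values were 0.721 for bta-miR-183 and bta-miR-182, 0.615 for bta-miR-183 and bta-miR-96, and 0.619 for bta-miR-96 and bta-miR-182. Beyond these steers the members shared fewer animals at the ends. Of the highest 10 steers 2 were the same for all 3 members, and of the lowest 10 also 2. Angus steer 7 ranked 2 of 60 for bta-miR-182 but 40 for bta-miR-96. No steer was among the highest 10 for 1 member and the lowest 10 for another.

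Against the other known miRNAs the members were by r each other's closest partners, with 1 exception. For bta-miR-182, bta-miR-183 and bta-miR-96 ranked 1 and 2 of 396 by r. For bta-miR-96, bta-miR-182 and bta-miR-183 ranked 1 and 2. For bta-miR-183, bta-miR-182 ranked 1, while bta-miR-1271 at r = 0.665 came before bta-miR-96. By rho it was instead bta-miR-100, at 0.696, that came before bta-miR-96, at 0.642. The median r over 396 partners was 0.016 for bta-miR-182, 0.0025 for bta-miR-183 and -0.0085 for bta-miR-96.

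How many other miRNAs moved with a member differed between them. For bta-miR-182, 0.758% of partners passed an adjusted p under 0.05 with a positive r and 0.253% with a negative r. For bta-miR-96 these shares were 3.54% and 0.505%, and for bta-miR-183 they were 7.32% and 3.28%. The 3 positive partners of bta-miR-182 were both other members and bta-miR-429.

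**Figure D4:**
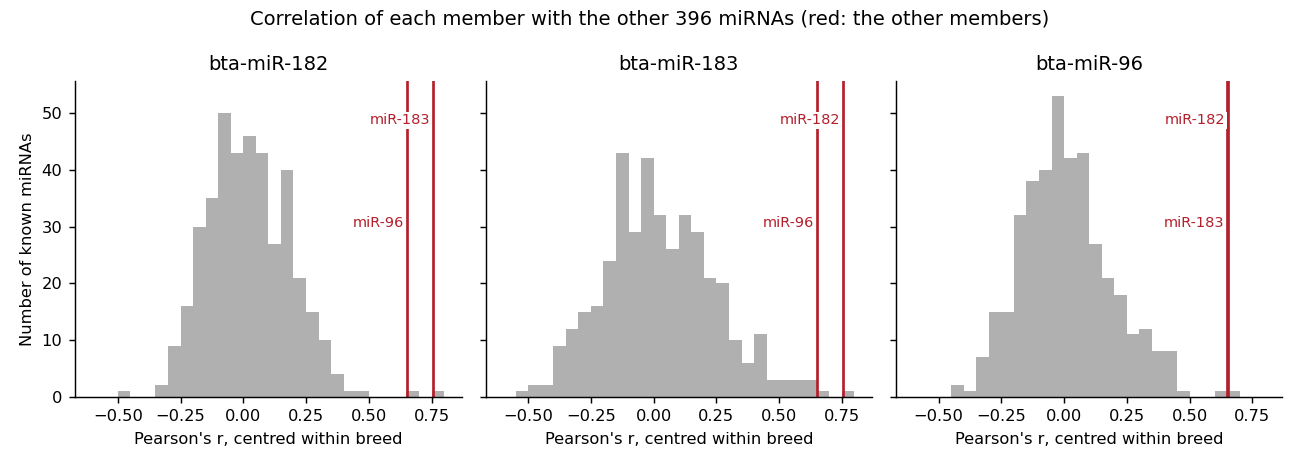
Histograms count the known miRNAs by Pearson's r with each member, centred within breed, in steps of 0.05. Red lines mark the other members, which lie at 0.650 to 0.755, at or beyond the upper end of each distribution.

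Outside the cluster, bta-miR-182 was by either measure closest to bta-miR-429, a miR-200 family member of epithelial cells, with rho = 0.525 and r = 0.479 (permutation test, adjusted p = 0.0356). In single breeds r came to 0.704 for KC, 0.642 for Charolais and 0.260 for Angus. Next by rho came bta-miR-199b (0.424), bta-miR-301a (0.401), bta-miR-10b (0.399) and bta-miR-375 (0.384), none of which passed the adjusted threshold by r.

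By rho, bta-miR-183 was closest outside the cluster to bta-miR-100, with rho = 0.696 and r = 0.594 (permutation test, adjusted p = 0.00036). By r, bta-miR-1271 came first outside the cluster and bta-miR-100 ranked 6 of 396. By rho, bta-miR-100 was followed by bta-miR-1271 (rho = 0.639), bta-miR-2285cj (0.636), bta-miR-99b (0.632) and bta-miR-2285k (0.611), which passed as well. For bta-miR-96 the closest by either measure was bta-miR-99a-5p, with rho = 0.536 and r = 0.476 (permutation test, adjusted p = 0.00264), before bta-miR-100 (0.521), bta-miR-2285bn (0.499), bta-miR-10b (0.493) and bta-miR-2285cj (0.483), all of which passed. bta-miR-100, bta-miR-99a and bta-miR-99b belong to a single family of similar sequence, and whether reads were shared among them in counting was not tested.

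bta-miR-1271 did not follow the member with its own seed most closely. Its r was 0.665 with bta-miR-183 (permutation test, adjusted p = 0.00036), 0.378 with bta-miR-96 (adjusted p = 0.0133) and 0.284 with bta-miR-182 (adjusted p = 0.186). The breed F test of edgeR gave bta-miR-1271 an adjusted p of 0.138.

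Markers of other liver cell types were set beside the members by lists, to be read against the shares of all 396 partners that passed with a positive r, 0.758% for bta-miR-182, 7.32% for bta-miR-183 and 3.54% for bta-miR-96. Of 5 biliary epithelium miRNAs, which mark bile duct cells, 1 (bta-miR-429) passed by r with bta-miR-182 and none with the others, and median r was 0.281 with bta-miR-182, 0.183 with bta-miR-183 and 0.323 with bta-miR-96. By rho, bta-miR-141 also passed with bta-miR-96 (rho = 0.447, permutation test, adjusted p = 0.0151). In single breeds, r of these 5 with bta-miR-96 ran from 0.223 to 0.582 in KC, 0.185 to 0.477 in Angus and -0.362 to 0.217 in Charolais. With bta-miR-183 r ran from 0.357 to 0.575 in KC, -0.056 to 0.09 in Angus and -0.377 to 0.391 in Charolais. With bta-miR-182 r ran from 0.244 to 0.704 in KC, -0.057 to 0.26 in Angus and 0.064 to 0.642 in Charolais. Of 5 miRNAs of stellate cells and fibroblasts, bta-miR-143 passed with bta-miR-183 (r = 0.409, permutation test, adjusted p = 0.0194) and bta-miR-145 with bta-miR-96 (r = 0.393, adjusted p = 0.0265), with list medians of 0.185, 0.272 and 0.225 in the same order of members. Of 7 leukocyte miRNAs, bta-miR-146b passed with bta-miR-183 (r = 0.457, adjusted p = 0.0077), with list medians of 0.029, 0.000 and 0.144. By rho, bta-miR-143 did not pass (adjusted p = 0.0823), while bta-miR-145 and bta-miR-146b did. Most list members did not pass with any member of the cluster.

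A negative r passed for the endothelial bta-miR-126-3p with bta-miR-183 (r = -0.386, permutation test, adjusted p = 0.0306), against 3.28% of all its partners, but not by rho (adjusted p = 0.0889). No miRNA of the 2 hepatocyte, 3 erythroid, 2 neuroendocrine or 2 SREBP-intron miRNAs (bta-miR-33a and bta-miR-33b) passed with any member by this permutation test. Their r with the members ran from -0.217 to 0.169 for the hepatocyte, from -0.069 to 0.277 for the erythroid, from -0.073 to 0.314 for the neuroendocrine and from -0.283 to 0.080 for the SREBP-intron list. The part of cell makeup in the correlation among the members was not tested. Library depth was also related to the members to unequal degrees, with r between log2 CPM and total counts, centred within breed, of 0.290 for bta-miR-183, 0.209 for bta-miR-96 and 0.071 for bta-miR-182, against a median size of 0.151 over all miRNAs.

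Between sires within breeds bta-miR-182 varied widely, but not past the adjusted threshold as tested by quasi-likelihood. In Angus, 5 sons of 1 sire averaged 527 ± 136 CPM and 6 of another 430 ± 103 CPM (SD), while 3 of a further sire averaged 295 ± 66.3 CPM and 2 of another 283 ± 13.4 CPM. The 3 sons with the mean of 295 CPM lay between 254 and 372 CPM, and the 5 of the sire with the highest mean, a family picked here for that mean, between 419 and 755 CPM. In Charolais the 5 sire means ran from 486 ± 87.5 CPM (SD, n = 4 steers) to 614 ± 93.1 CPM (SD, n = 3 steers), with overlap. In KC 9 sires had a single steer each, and the family of 8 ran from 278 to 828 CPM.

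The quasi-likelihood F test of edgeR for differences between sires within breeds gave bta-miR-182 an adjusted p of 0.124, with the eighth smallest p of 397, where 1.51% of miRNAs were called. The edgeR likelihood-ratio test gave an adjusted p of 0.00344, and the quasi-likelihood test without KC steer 4 gave 0.0242. With sires of at least 2 steers only, the edgeR adjusted p was 0.378, and without KC steer 3 it was 0.0970. For bta-miR-96 the edgeR adjusted p was 0.551 and for bta-miR-183 it was 0.855. Differences between sires held 60.1% of the within-breed variance of log2 CPM for bta-miR-182, 54.4% for bta-miR-96 and 42.8% for bta-miR-183, against a median of 33.5% over all miRNAs, shares that sires with a single steer raise for every miRNA.

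**Figure D5:**
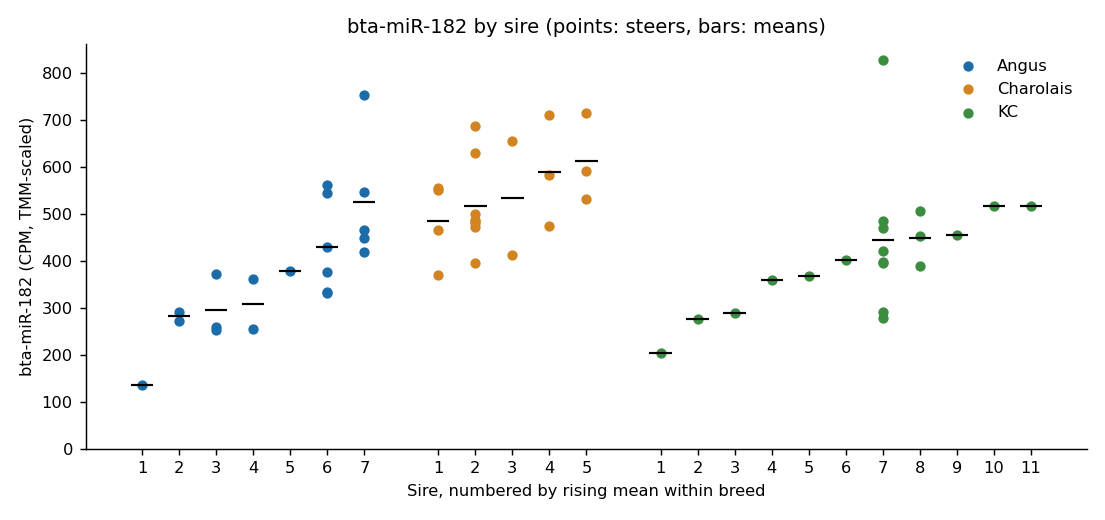
Each point is the bta-miR-182 level of 1 steer in CPM on a linear axis from 0, in columns by sire that are ordered by mean within breed, with bars at the means. In Angus the means of sires with at least 2 steers run from 283 to 527 CPM, and in KC 9 of 11 columns hold a single steer.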

How the data were processed

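Liver small RNA was sequenced for 60 steers (Illumina TruSeq Small RNA libraries). Per the labels and the study's methods, the authors trimmed reads with cutadapt 1.16, kept lengths of 15 to 28 bases, removed other small RNAs and counted with miRDeep2 2.0.0.8 (Bowtie 1.1.1, UMD3.1, miRBase release 22). The deposited values are raw read counts per pair of mature miRNA and precursor.

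Counts were averaged over precursors and rounded. Tests used edgeR 4.0.16 (R 4.3.3): TMM, quasi-likelihood F test over miRNAs that reached 1 CPM in 6 of 12, 18 of 36 or 20 of 60 steers or more, and Benjamini-Hochberg adjustment over those miRNAs. CPM and log2 CPM (prior count 0.5) used TMM factors of the 60 steers. Correlations were permuted 100000 times within breeds (20000 in alternatives), in Python 3.11.15 with scipy 1.17.1. DESeq2 1.42.0 and limma 3.58.1 served as alternatives. The edgeR scripts were tested on simulated data. Groups and sires follow the labels.

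Named are the members, the 5 closest partners of each by rho, miRNAs with a member's seed among the 588 listed sequences, and list members that passed. Members, lists and tests were chosen with earlier results of these data known. Predicted miRNAs were not analysed here.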

Additional observations from a re-analysis of the deposited data

Results flagged for a closer look

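In 27 groups of 6 or 8 steers (3 members, 9 groups), 3 held a steer far from the others. The critical value is set so that chance gives about 1 such group in 20 among independent, unselected groups, which these were not. The members are correlated, and KC steer 4 was flagged for both bta-miR-183 and bta-miR-182. All 3 were groups of steers with no RFI group, left out when the study picked steers partly on miRNA expression. KC steer 4 stood at 44.02 CPM of bta-miR-183, next to 22.38 CPM in the other KC steers without an RFI group, and at 827.7 CPM of bta-miR-182, next to 485.3 CPM. Scaled by library totals without TMM factors it stood apart as well, at 45.95 and 863.9 CPM. Charolais steer 16 stood at 13.34 CPM of bta-miR-96, next to 8.009 CPM in the other Charolais steers without an RFI group. Its TMM factor was 0.698, and by library totals it had 9.304 CPM, where its gap to the next steer was 0.252 of the group's range and no longer past the critical value of 0.526.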

How the results depend on the processing

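Outside leave-one-out fits, 214 planned values kept their direction and their side of the threshold. Counted among these, and among the 90 named below, are mean levels by breed, which have no threshold. For those levels it means only that the mean moved by less than the SD between steers. The exceptions among planned values follow. With sire as a block the RFI log2 fold change in Angus turned to 0.00044076 for bta-miR-182 and 0.063841 for bta-miR-183, that of bta-miR-96 across breeds to -0.077522 (-0.0015901 by the likelihood-ratio test), and that of bta-miR-183 in Charolais became -1.1492 (edgeR adjusted p = 0.224), on 6 residual degrees of freedom. Thinning turned the bta-miR-96 difference of KC from Charolais to -0.02723. The p for bta-miR-182 between sires was 0.000104 by the likelihood-ratio test. The cause was not tested for any of these. Among alternatives chosen after seeing the data, the edgeR p between breeds for bta-miR-183 was 0.0066678 without KC steer 4 and 0.0091627 without Angus steer 7, that between sires for bta-miR-182 was 0.00036628 without KC steer 4, and 90 others kept direction and side. Leaving out each steer in turn, RFI log2 fold changes ran from -0.21 to 0.057 for bta-miR-183 in Angus (positive without high-RFI steer 5 or low-RFI steer 11), from -0.058 to 0.13 for bta-miR-182 in KC, from 0.15 to 0.39 for bta-miR-183 in KC and from 0.28 to 0.75 for bta-miR-96 in KC; the other 5 and the last 2 kept their sign. Depth limits bta-miR-96 most, at 5 to 94 counts per steer. With 6 steers a group, the RFI intervals leave room for changes of over 1.5-fold for some members.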
